A study of Mus musculus with 6 samples.

Results

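The cytochrome P450 (Cyp) genes of mouse ileum were followed over 3 groups of 2 single-colour Affymetrix arrays. Members were all genes on the array whose symbol starts with Cyp and a digit, except Cyp51 and Cyp27a1, and only probe sets annotated to 1 gene were used. This gave 61 genes with 74 probe sets, of 12393 genes and 22626 probe sets on the array. Roles were assigned by the subfamily in the symbol alone, so a gene's own substrates may differ from its group. By this rule, 34 genes belonged to the xenobiotic subfamilies, 15 to fatty acid and eicosanoid oxidation, 5 to cholesterol and bile acid metabolism, 4 to steroid hormone synthesis and 3 to retinoid and vitamin D metabolism. All mice were wild-type males of 8 to 10 months, kept on chow, on the mixed strain background C57BL/6:129Sv. Gavage was daily, starting 2 days ahead of the operation and going on for 5 days afterwards. BDL_GW4064 mice had their common bile duct ligated and received GW4064, a compound that activates FXR (the nuclear receptor for bile acids), at 100 mg/kg/day in a Tween and methylcellulose carrier. BDL_Vehicle mice had the same ligation and the carrier alone. Sham_Vehicle mice received the carrier, and their duct was exposed but not tied. Whether the 2 arrays per group stand for separate mice or pools is not in the labels, so p-values measure only how far these samples differ, and that spread may be technical. RNA came from whole ileum, where fewer cells of a type and less RNA per cell cannot be told apart.

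P450s are haem enzymes of the endoplasmic reticulum or mitochondria that insert 1 oxygen atom into drugs, bile acids, fatty acids, steroids and vitamins. Enzymes of the Cyp2b, Cyp2c and Cyp3a subfamilies act on foreign compounds. In mouse liver and gut, their genes are switched on by the nuclear receptors PXR (gene Nr1i2) and CAR (gene Nr1i3), which respond to drugs. PXR also binds some bile acids. Cyp4 enzymes hydroxylate the end carbon of fatty acids, leukotrienes and related lipids. Cyp7a1 and Cyp8b1 make bile acids in the liver, and the ileal hormone Fgf15 represses Cyp7a1.

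Promoter windows are shown for Cyp3a11 and Cyp2b10, which passed the test after ligation, and for 3 Cyp2c genes whose ligated arrays lay below the sham arrays. Each runs from 250 bases before the RefSeq transcription start to 50 bases after it (build GRCm38.p6), 5′ to 3′ on the gene's strand. Capitals mark the letters TATAAA wherever they stand, the letters CAAAGTCCA known to be bound by the nuclear receptor HNF4, and the nuclear receptor half-sites AGGTCA and AGTTCA, on either strand. They mark letters alone, so a marked TATAAA need not be a working TATA box.
Cyp3a11, chr5:145879805-145880104, minus strand: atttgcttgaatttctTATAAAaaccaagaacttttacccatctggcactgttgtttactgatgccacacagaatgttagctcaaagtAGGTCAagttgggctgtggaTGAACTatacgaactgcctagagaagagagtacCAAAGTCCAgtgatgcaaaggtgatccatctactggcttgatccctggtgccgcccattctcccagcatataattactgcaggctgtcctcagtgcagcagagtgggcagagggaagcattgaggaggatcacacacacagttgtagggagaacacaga
Cyp2b10, chr7:25897408-25897707, plus strand: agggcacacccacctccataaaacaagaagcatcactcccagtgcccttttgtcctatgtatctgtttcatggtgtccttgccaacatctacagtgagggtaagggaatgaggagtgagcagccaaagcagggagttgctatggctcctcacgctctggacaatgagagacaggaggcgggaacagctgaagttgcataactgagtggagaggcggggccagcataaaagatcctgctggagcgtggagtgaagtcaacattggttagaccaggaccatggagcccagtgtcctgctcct
Cyp2c55, chr19:39006769-39007068, plus strand: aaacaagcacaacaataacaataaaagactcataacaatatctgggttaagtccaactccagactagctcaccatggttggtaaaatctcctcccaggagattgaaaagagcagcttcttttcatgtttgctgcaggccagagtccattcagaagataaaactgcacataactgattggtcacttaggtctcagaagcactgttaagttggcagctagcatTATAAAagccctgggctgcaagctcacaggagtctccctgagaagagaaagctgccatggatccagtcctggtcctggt
Cyp2c65, chr19:39060756-39061055, plus strand: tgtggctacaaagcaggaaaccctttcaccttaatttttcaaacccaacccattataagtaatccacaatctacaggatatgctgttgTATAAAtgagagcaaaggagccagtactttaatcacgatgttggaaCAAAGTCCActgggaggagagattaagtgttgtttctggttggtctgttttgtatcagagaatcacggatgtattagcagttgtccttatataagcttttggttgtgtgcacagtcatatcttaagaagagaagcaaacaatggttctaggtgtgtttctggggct
Cyp2c68, chr19:39741052-39741351, minus strand: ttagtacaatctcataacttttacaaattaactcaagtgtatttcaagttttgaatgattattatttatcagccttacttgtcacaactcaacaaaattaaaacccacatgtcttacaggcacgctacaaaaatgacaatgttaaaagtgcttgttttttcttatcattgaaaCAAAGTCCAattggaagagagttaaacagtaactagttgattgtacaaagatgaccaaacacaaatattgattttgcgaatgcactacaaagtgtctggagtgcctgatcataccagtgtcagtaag

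The letters CAAAGTCCA stood in the windows of Cyp3a11, Cyp2c65 and Cyp2c68, and in 0.475% of all 32851 RefSeq promoter windows. Counted from the first transcribed base as 0, they began at -109 in Cyp3a11, at -116 in Cyp2c65 and at -77 in Cyp2c68. The marked TATAAA began at -234 in Cyp3a11, at -162 in Cyp2c65 and at -29 in Cyp2c55. Over the family, 6 of 44 genes with a window held CAAAGTCCA. A gene was counted if any of its windows held the letters, while the shares are of single windows. Gene counts and window shares are therefore not on the same base. TATAAA was found in 13.6% of all windows and in 19 of 44 Cyp genes, AGGTCA in 16.3% and 12 of 44, and AGTTCA in 14% and 7 of 44. The Cyp2b10 window held none of these letters, and no marked match overlapped another in the 5 windows. Pairs of half-sites (AGGTCA or AGTTCA) were also sought as direct repeats spaced by 3 or 4 bases, everted repeats spaced by 6 or 8 and inverted repeats spaced by 1. They stood in 0.0122%, 0.0274%, 0.00913%, 0.0122% and 0.0152% of all windows, and in 0 of 44 Cyp genes. With shares this small, 0 is the likely count for any 44 genes, and only exact matches inside the windows were sought. The count therefore does not show that Cyp genes lack such repeats. Hnf4a itself had signals of 2963.4 and 2875.7 in BDL_GW4064, 2728.6 and 2916.7 in BDL_Vehicle, and 2720 and 2856.6 in Sham_Vehicle.

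A linear MAS5 signal was measured for every probe set, and each array had the same 2% trimmed mean of 200.1. Probe sets in the lowest 40% of mean signal were not tested, which left 24 Cyp probe sets of 19 genes among 13575 probe sets. That cut lies at a signal of 37.1, used as the floor for dim groups. Arrays fell into 2 sets by the 5′ control for 18S rRNA, which was high (67.3 to 88.7) in BDL_Vehicle replicate 1 and the Sham_Vehicle pair and low (8.6 to 13.3) in the other arrays. BDL_Vehicle was the group found in both sets, so values adjusted for the array set rest on 1 BDL_Vehicle array, replicate 1 for ligation and replicate 2 for GW4064. The actin 3′ to 5′ ratio was 1.73 in Sham_Vehicle replicate 2 and 1.09 to 1.22 in the other arrays. General enterocyte markers were bright in every array: all 12 measured of 14 listed lay over the floor, and their summed signal was 42270.2 to 49705.2 in BDL_GW4064, 42140.7 to 47106.1 in BDL_Vehicle and 45313.2 to 45871.1 in Sham_Vehicle.

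The first comparison set ligated mice on vehicle against sham mice and asked how bile duct ligation changed P450 expression. Cyp3a11 and 1 probe set of Cyp2b10 fell, by 3.17-fold and 5.32-fold. They were the 2 called of 24 Cyp probe sets, where 0.0295% of all tested probe sets were called lower, and limma called 0 Cyp probe sets higher, where 0% of all were. At an unadjusted p under 0.05, 8 Cyp probe sets were lower, where 2.98% of all were, and 0 were higher, where 3.39% were. All Cyp2b10 probe sets are among the 8. By the brightest probe set of each gene, 6 of 19 Cyp genes were lower, where 3.06% of all tested genes were. Most tested Cyp genes had lower values after ligation, 15 of 19, where 51.7% of all tested probe sets had, with a median log2 difference of -0.34 against -0.01 over all 7919 tested genes. Without Sham_Vehicle replicate 2 that Cyp median was -0.16. The shift was larger in the xenobiotic genes (10 of 12 lower, median -0.64) than in the fatty acid genes (5 of 7 lower, median -0.20), a difference that was not tested. The filter used the mean of all arrays, so these counts describe the tested genes and not the whole family.

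The summed signal of ileal enterocyte markers, 5 measured of 5 listed, was also lowest in BDL_Vehicle. It was 15528.7 and 14612.4 in BDL_GW4064, 8367.2 and 10065.6 in BDL_Vehicle, and 13598.7 and 13645.9 in Sham_Vehicle. By limma 2 of 5 were called lower after ligation and 2 of 5 higher with GW4064, in both cases Fgf15 and the bile acid binding protein gene Fabp6, which are known FXR targets. Fabp6 weighed most in the sum, at 2620.5 and 3109.5 in BDL_Vehicle and 6480.3 and 6650.7 in Sham_Vehicle. The 3 others did not follow it as a set. Their ligation differences were 0.03 for Guca2b, -0.21 for Slc51a and -0.05 for Slc10a2. With GW4064 they were 0.11, 0.64 and -1.39. The part of this list in the Cyp values was not tested.

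**Figure D1:**
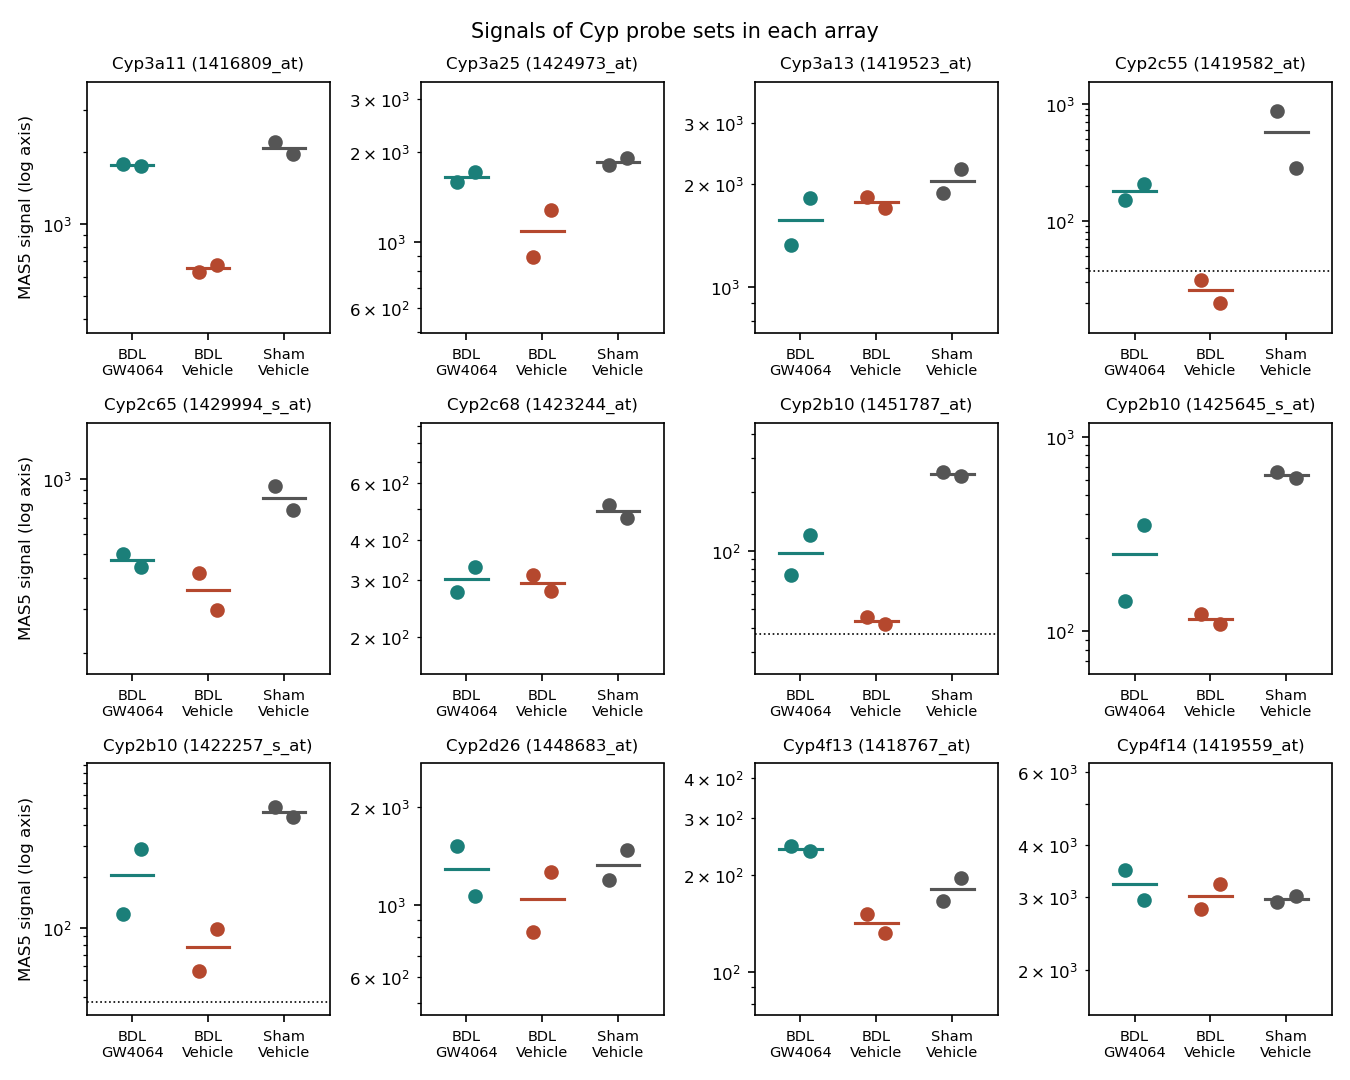
MAS5 signals (vertical log axis) of 12 Cyp probe sets in BDL_GW4064, BDL_Vehicle and Sham_Vehicle, with 1 point per array, a line at the group mean and a dotted line at the floor of 37.1 where it falls in range. Cyp3a11, Cyp2c55 and Cyp2b10 were lowest in BDL_Vehicle, while Cyp4f14 overlapped between all groups.

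In the Cyp3a subfamily, Cyp3a11, the main drug and bile acid oxidising P450 of mouse liver and gut, read 628.8 and 673.7 in BDL_Vehicle, against 2193.5 and 1955.1 in Sham_Vehicle. Its log2 difference was -1.66 with a 95% interval of -1.93 to -1.39 (limma adjusted p = 0.00526), far beyond the gap between arrays of a group. Its neighbour in the genome, Cyp3a25, another Cyp3a enzyme of liver and intestine, read 892.9 and 1280.9 in BDL_Vehicle and 1803.5 and 1911.5 in Sham_Vehicle. Here the groups did not overlap, but the difference of -0.79 (-1.19 to -0.40) did not pass (limma adjusted p = 0.492). Cyp3a13, a Cyp3a gene with no other Cyp gene beside it, read 1836.3 and 1702.7 in BDL_Vehicle and 1881.6 and 2207.6 in Sham_Vehicle, and its difference of -0.20 (-0.59 to 0.18) did not pass. The Cyp3a genes thus covered a range, with the interval of Cyp3a11 below those of both others. Cyp3a16 (0.2 to 3.1) and Cyp3a44 (1.8 to 33.1) stayed under the floor in every array.

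Cyp2b10, a P450 whose gene is a standard CAR target in mouse liver, was measured by 3 probe sets that all lay lower after ligation. The called probe set read 45.2 and 41.6 in BDL_Vehicle, against 253.7 and 242.3 in Sham_Vehicle, a log2 difference of -2.41 (-2.97 to -1.85, limma adjusted p = 0.0362). The second probe set read 123.3 and 108.6 in BDL_Vehicle, against 656.2 and 613.3 in Sham_Vehicle, and the third 56.3 and 99.2 in BDL_Vehicle, against 506.8 and 444.1 in Sham_Vehicle. Their differences of -2.41 ± 0.36 and -2.60 ± 0.40 (SE) were of the same size, with a limma adjusted p of 0.2 each. The second and the third carry the suffix _s_at, for probes that can match more than 1 transcript, so which Cyp2b transcripts they measure is uncertain. Cyp2b9, Cyp2b13 and Cyp2b19 stayed under the floor in every array, at most 29.2, 9.7 and 23.3. Cyp2s1, the gene next to Cyp2b10 and a P450 of epithelia, had 608.4 and 660.1 in BDL_Vehicle and 709.5 and 752.1 in Sham_Vehicle. Its difference was -0.20 (-0.53 to 0.12), and its interval did not meet that of any Cyp2b10 probe set.

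Among the Cyp2c genes, Cyp2c55, an arachidonic acid oxidising P450, read 31.5 and 19.9 in BDL_Vehicle, both under the floor, against 861.6 and 281.8 in Sham_Vehicle. It was at least 12.1-fold lower after ligation, with a limma adjusted p of 0.0851, and the 2 sham arrays themselves differed widely. Without Sham_Vehicle replicate 1 the bound was 6.95-fold (limma adjusted p = 0.0831), and without Sham_Vehicle replicate 2 it was 21-fold (0.0153). Without BDL_Vehicle replicate 1 or 2 the limma adjusted p was 0.266 and 0.455. Cyp2c65, which lies beside Cyp2c55, read 418.8 and 297.6 in BDL_Vehicle and 936 and 749.8 in Sham_Vehicle, a difference of -1.24 (-1.70 to -0.78, limma adjusted p = 0.212). Its probe set is also of the _s_at kind. Cyp2c68, in the same gene cluster, read 311.7 and 277 in BDL_Vehicle and 514.3 and 468.7 in Sham_Vehicle. For these 3 genes the groups did not overlap. The remaining tested Cyp2c genes were dim and overlapped: Cyp2c23 spanned 44.3 to 95.5, Cyp2c38 30.6 to 73.1 and Cyp2c54 32.6 to 45.5 over all arrays.

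The Cyp2d genes overlapped between ligated and sham mice. Cyp2d26 read 826.3 and 1262.6 in BDL_Vehicle and 1192.7 and 1475.7 in Sham_Vehicle, a difference of -0.38 (-0.94 to 0.18). Cyp2d22, often compared with human CYP2D6, read 102.4 and 167.5 in BDL_Vehicle and 107.6 and 163.5 in Sham_Vehicle on its brighter probe set. Across the family, 13 of 24 Cyp probe sets were lower without overlap, where 18.7% of all tested probe sets were. By the brightest probe set of each gene, 10 of 19 Cyp genes were, where 19.7% of all tested genes were. Higher without overlap was 1 of 24 Cyp probe sets, where 18.2% of all were.

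That 1 probe set was the brighter one of Cyp4f16, a gene of the Cyp4f group of eicosanoid and fatty acid hydroxylases, with 1263.6 and 1370.9 in BDL_Vehicle and 896.8 and 1104.9 in Sham_Vehicle. The difference of 0.40 (-0.04 to 0.84) did not pass. A second Cyp4f16 probe set pointed the other way, with 34.7 and 60.8 in BDL_Vehicle and 96.4 and 94 in Sham_Vehicle (a difference of -0.99), and its suffix _x_at marks probes that can match unrelated transcripts. Cyp4f14, a leukotriene and vitamin E hydroxylase, read 2800.2 and 3219.8 in BDL_Vehicle and 2914.2 and 3017.2 in Sham_Vehicle, and its interval of -0.27 to 0.30 places any change below that of Cyp3a11. Cyp4f13, which neighbours Cyp4f14, read 151.7 and 132.7 in BDL_Vehicle and 166.1 and 195.7 in Sham_Vehicle. Cyp4b1, a fatty acid hydroxylase, had a difference of -0.09 (-0.53 to 0.35), and turned to 0.17 without Sham_Vehicle replicate 2. Cyp4v3, the mouse counterpart of the human retinal disease gene CYP4V2, had -0.30 (-0.78 to 0.19) on its brighter probe set, of the _s_at kind. Its other probe set had -0.11 (-0.86 to 0.65). Cyp2j6, of a subfamily that makes epoxides of arachidonic acid, had -0.36 (-0.97 to 0.25). By limma, 0 probe sets of the 7 tested fatty acid genes passed, and 0 had an unadjusted p under 0.05.

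Leaving out 1 array ended some calls. Cyp3a11 did not pass without Sham_Vehicle replicate 1 (limma adjusted p = 0.073) or BDL_Vehicle replicate 1 (0.0888), and Cyp2b10 did not pass without either Sham_Vehicle array (0.129 and 0.411) or either BDL_Vehicle array (0.266 and 0.387). Adjusted for the array set, the ligation differences were -1.71 for Cyp3a11 (limma adjusted p = 0.0455), -2.36 for Cyp2b10 (0.417), -0.99 for Cyp2c65 and -1.05 for Cyp3a25.

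**Figure D2:**
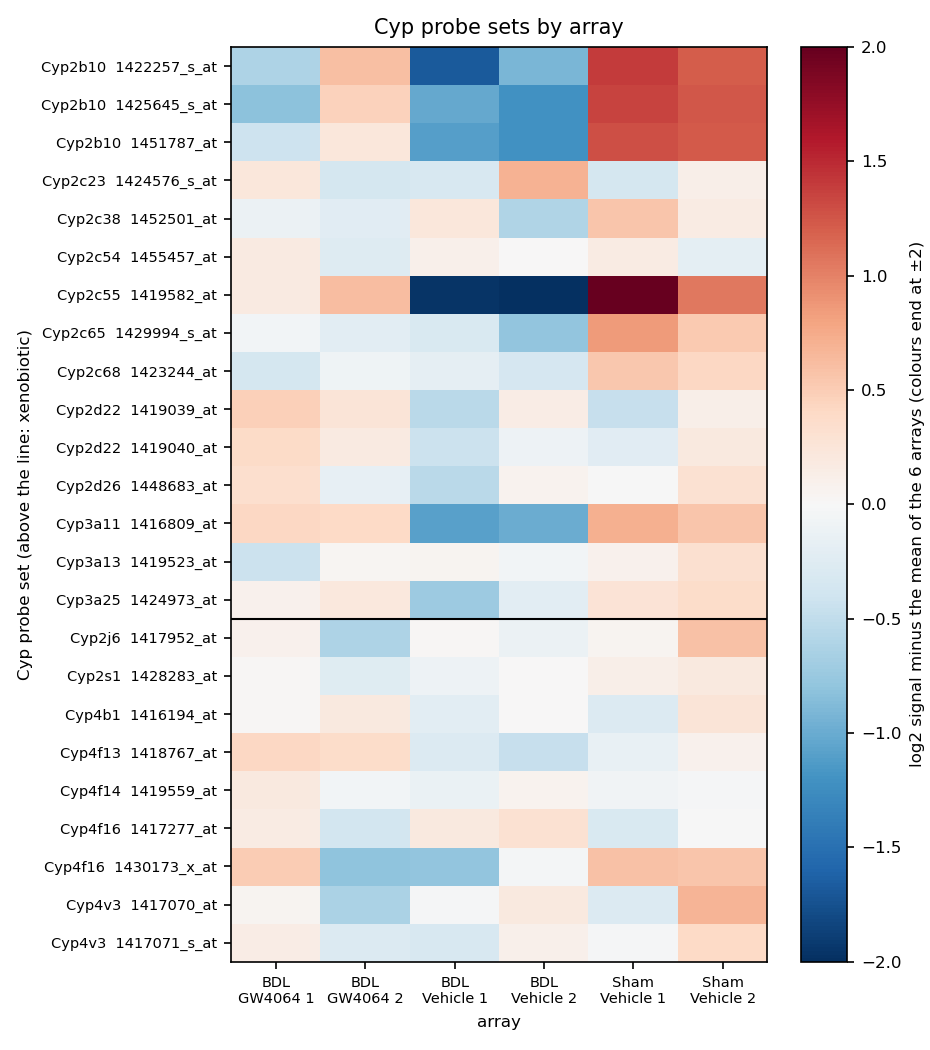
Each row is 1 of 24 tested Cyp probe sets and each column an array, coloured by log2(signal + 4) minus the mean of the 6 arrays, with colours ending at 2 on either side. The Cyp2b10, Cyp2c55 and Cyp3a11 rows were lowest in both BDL_Vehicle arrays, and BDL_GW4064 replicate 2 was higher than replicate 1 for Cyp2b10.

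The second comparison set ligated mice on GW4064 against ligated mice on vehicle and asked what the FXR agonist did to these genes. Cyp3a11 rose 2.71-fold and was the 1 called of 24 Cyp probe sets, where 0.0442% of all tested probe sets were called higher. By limma, 0 Cyp probe sets were called lower, where 0.00737% of all were, while 7 were higher (4.43% of all) and 0 lower (3.06% of all) at p under 0.05 before adjustment. By the brightest probe set of each gene, 5 of 19 Cyp genes were higher at that p, where 5.06% of all tested genes were. Values were higher with GW4064 in 13 of 19 tested Cyp genes, where 47.9% of all tested probe sets were higher, with a median of 0.09 against 0.00 over all tested genes. That Cyp median was 0.0294 with median centring, 0.26 without BDL_Vehicle replicate 2 and 0.22 without BDL_GW4064 replicate 2. The xenobiotic genes had a median of 0.36 (9 of 12 higher) and the fatty acid genes 0.05 (4 of 7 higher). Without overlap, 11 of 24 Cyp probe sets were higher, where 17.4% of all tested probe sets were, and 1 of 24 was lower, where 18.1% were. By the brightest probe set of each gene, 8 of 19 Cyp genes were higher without overlap, where 19.1% of all tested genes were. This comparison shares the BDL_Vehicle arrays with the first, so a low BDL_Vehicle value enters both.

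Cyp3a11 read 1787.3 and 1754.4 in BDL_GW4064, against 628.8 and 673.7 in BDL_Vehicle, a log2 difference of 1.44 (1.17 to 1.71, limma adjusted p = 0.0094). Both treated arrays lay close together and far above both vehicle arrays. Cyp3a25 read 1581.2 and 1710.2 in BDL_GW4064, against 892.9 and 1280.9 in BDL_Vehicle, a difference of 0.62 (0.22 to 1.02) that did not pass (limma adjusted p = 0.402). Cyp3a13 read 1324.7 and 1825.4 in BDL_GW4064, a pair that spans both BDL_Vehicle values, with a difference of -0.18 (-0.57 to 0.20).

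The Cyp2b10 probe sets were higher in both BDL_GW4064 arrays than in either BDL_Vehicle array, but the treated arrays differed from each other. On the called probe set of the first comparison they read 74.9 and 119.7 in BDL_GW4064, against 45.2 and 41.6 in BDL_Vehicle (1.06, 0.50 to 1.62, limma adjusted p = 0.303). On the second probe set they read 142.9 and 353.5 in BDL_GW4064, against 123.3 and 108.6 in BDL_Vehicle, and on the third 121.8 and 289.1 in BDL_GW4064, against 56.3 and 99.2 in BDL_Vehicle. The difference on the second was 0.94 over both arrays, 1.58 without BDL_GW4064 replicate 1 (limma adjusted p = 0.0404) and 0.30 without BDL_GW4064 replicate 2. The higher array, replicate 2, was also the one rich in smooth muscle RNA. Its summed signal of 11 smooth muscle markers was 15063.3, against 2166.2 in BDL_GW4064 replicate 1, 1695 to 2158.1 in BDL_Vehicle and 2118.8 to 2346.8 in Sham_Vehicle. The summed adipose markers, 6 measured of 8, were 1717.7 in replicate 2 and 469.6 in replicate 1, against 223.8 to 531.8 in BDL_Vehicle and 344.8 to 731.2 in Sham_Vehicle. Other markers were higher in both BDL_GW4064 arrays. The 11 fibroblast and matrix markers summed to 3847 and 4824.3 in BDL_GW4064, against 1338.3 and 1695 in BDL_Vehicle and 1351.9 and 2176.9 in Sham_Vehicle, and 11 of 11 were higher with GW4064, with the fibronectin gene Fn1 the 1 called by limma. The 7 endothelial markers summed to 512.2 and 495 in BDL_GW4064, against 259.2 and 297.1 in BDL_Vehicle and 253.9 and 343.9 in Sham_Vehicle. The 8 macrophage markers summed to 2890.1 and 2605.1 in BDL_GW4064, against 2406.2 and 1797.8 in BDL_Vehicle and 1504.3 and 1696.8 in Sham_Vehicle. The part of all these cell types in the Cyp values was not tested.

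Cyp2c55 read 151.9 and 207.4 in BDL_GW4064, against 31.5 and 19.9 in BDL_Vehicle, at least 4.41-fold higher (limma adjusted p = 0.204). Cyp2c65 read 498.6 and 445.7 in BDL_GW4064, against 418.8 and 297.6 in BDL_Vehicle, a smaller difference of 0.41 (-0.05 to 0.87). Cyp2c68 read 275.8 and 330.5 in BDL_GW4064, against 311.7 and 277 in BDL_Vehicle, and the groups overlapped. Of the 3 neighbouring or clustered Cyp2c genes, Cyp2c55 and Cyp2c65 thus had no overlap between these groups. The interval of Cyp2c65 met that of Cyp2c68 (-0.33 to 0.40), and the difference between genes was not tested. Cyp2d22 read 209.1 and 179.3 in BDL_GW4064, against 102.4 and 167.5 in BDL_Vehicle, without overlap. Cyp2d26, at 1517 and 1065.9 in BDL_GW4064, overlapped with BDL_Vehicle.

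Of the fatty acid genes, Cyp4f13 read 246.1 and 237.2 in BDL_GW4064, against 151.7 and 132.7 in BDL_Vehicle, and these groups did not overlap. Cyp4f14 read 3485.9 and 2938.1 in BDL_GW4064 and overlapped with BDL_Vehicle (0.09, -0.19 to 0.37). Cyp4f16 read 1235.4 and 859.1 in BDL_GW4064 on its brighter probe set, both below BDL_Vehicle (-0.35, -0.79 to 0.09). Cyp4b1 had 0.21 (-0.23 to 0.65), Cyp4v3 0.05 (-0.44 to 0.53), Cyp2s1 -0.06 (-0.39 to 0.27) and Cyp2j6 -0.22 (-0.83 to 0.39), and none passed. That Cyp4v3 value is from its brighter probe set, and the other one had -0.38 (-1.14 to 0.37). The sign turned for the brighter Cyp4v3 probe set with median centring (-0.0141). Adjusted for the array set it turned for Cyp4f14 (-0.00875) and Cyp4v3 (-0.16), and without BDL_GW4064 replicate 2 it turned for Cyp2j6 (0.13) and Cyp2s1 (0.0697).

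The Cyp3a11 call ended without BDL_Vehicle replicate 1 (limma adjusted p = 0.0874) or replicate 2 (0.0577), where the differences were 1.39 and 1.49. Without BDL_GW4064 replicate 2, the array rich in smooth muscle RNA, it passed (1.45, limma adjusted p = 0.0471). Adjusted for the array set, the GW4064 differences were 1.39 for Cyp3a11 (limma adjusted p = 0.0898), 1.12 for the called Cyp2b10 probe set, 0.66 for Cyp2c65 and 0.36 for Cyp3a25.

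**Figure D3:**
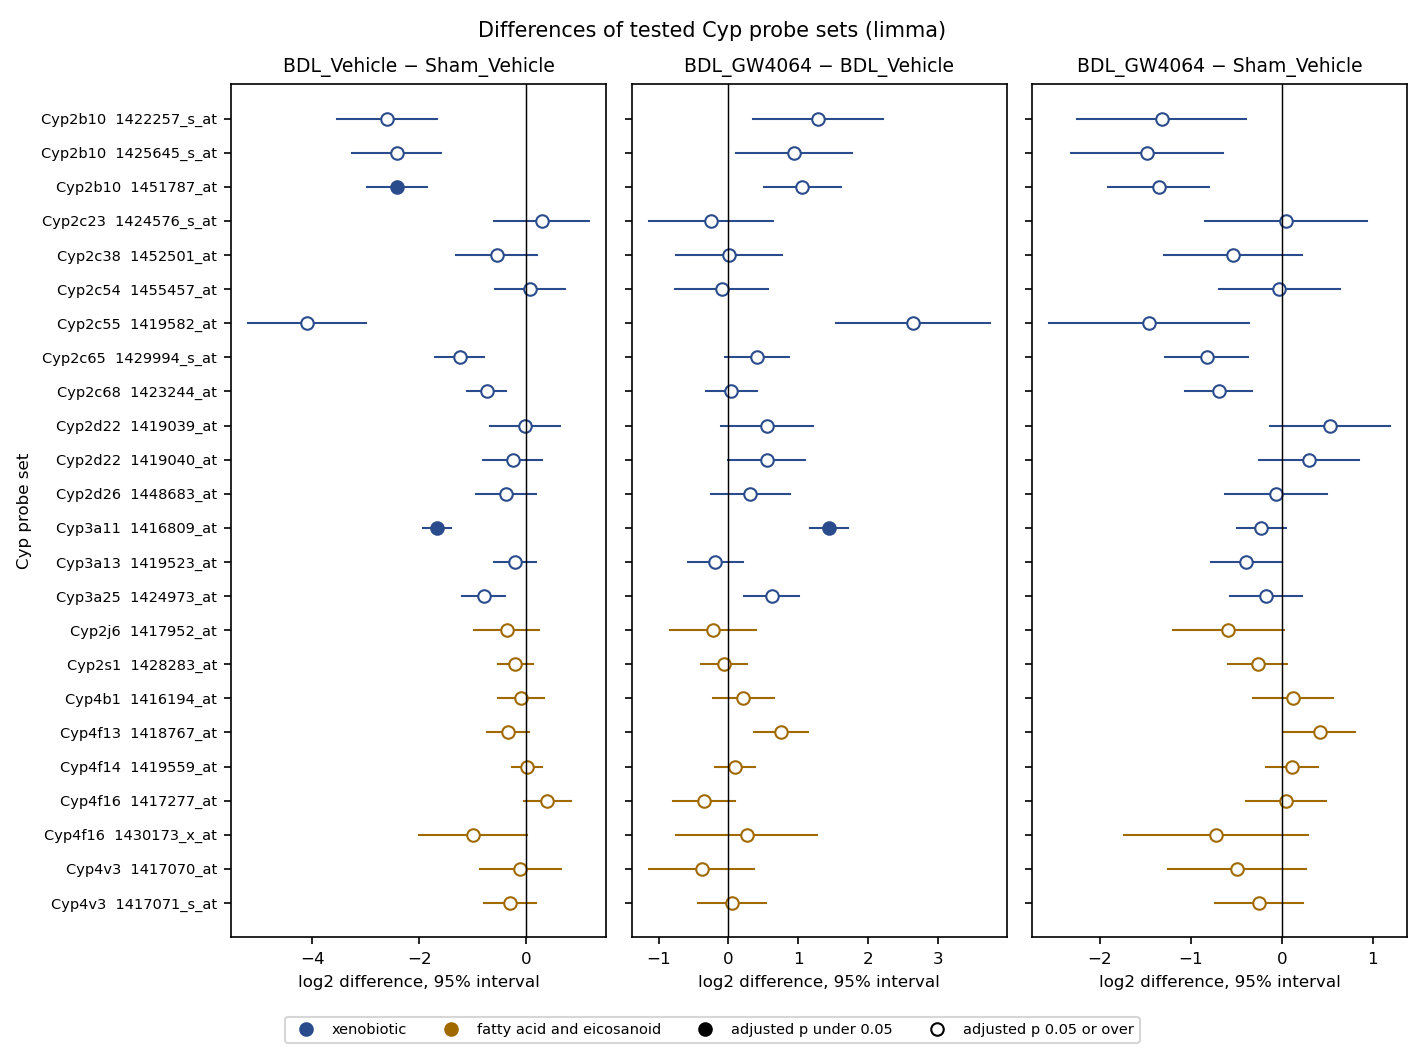
Log2 differences with 95% intervals (horizontal axis) of 24 tested Cyp probe sets in the 3 comparisons, blue for xenobiotic and brown for fatty acid and eicosanoid genes, filled where the limma adjusted p was under 0.05. Cyp3a11 is filled for ligation (-1.66) and for GW4064 (1.44), and no point is filled for BDL_GW4064 against Sham_Vehicle. The Cyp2c55 points for ligation and GW4064 are fitted to BDL_Vehicle signals under the floor, where the data give only bounds (12.1-fold and 4.41-fold).

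The third comparison set ligated mice on GW4064 against sham mice on vehicle, which places the treated ileum relative to sham-operated mice. It shares the Sham_Vehicle arrays with the first comparison and the BDL_GW4064 arrays with the second. A high Sham_Vehicle value therefore enters both the first and the third, and the third is no independent evidence. By limma, 0 of 24 Cyp probe sets passed, where 0.0368% of all tested probe sets did, with 0 higher (0.0221% of all) and 0 lower (0.0147% of all). Without adjustment, 1 Cyp probe set was higher at p under 0.05, where 7.31% of all were, and 7 were lower, where 8.67% were. By the brightest probe set of each gene, 5 of 19 Cyp genes were lower at that p, where 7.08% of all tested genes were. Cyp3a11 read 1787.3 and 1754.4 in BDL_GW4064, just below the 2193.5 and 1955.1 of Sham_Vehicle, with an interval of -0.49 to 0.04 on the log2 scale. Before adjustment for the array set, Cyp3a25 was likewise close, at -0.17 (-0.57 to 0.22), but after it the value was -0.69. Cyp3a13 was at -0.39, an unadjusted p under 0.05 that did not survive adjustment for multiple testing (limma adjusted p = 0.311).

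Cyp2b10 was further from sham levels. On the probe set called after ligation the BDL_GW4064 arrays, 74.9 and 119.7, lay 2.55-fold below the Sham_Vehicle arrays, 253.7 and 242.3 (-1.91 to -0.79, limma adjusted p = 0.15). The second probe set gave -1.48 and the third -1.32, and the second passed without BDL_GW4064 replicate 2 (-2.12, limma adjusted p = 0.0344). Cyp2c55 had a difference of -1.45 (-2.55 to -0.35), Cyp2c65 -0.82 (-1.28 to -0.37) and neither passed. For Cyp2c55 the difference was -0.65 without Sham_Vehicle replicate 1 and -2.25 without replicate 2. Cyp2c68 read 275.8 and 330.5 in BDL_GW4064, against 514.3 and 468.7 in Sham_Vehicle, so both its ligated groups lay below sham. The interval of Cyp3a11 did not overlap that of Cyp2b10 on any of its probe sets except the third, but the difference between genes was not tested.

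Without overlap, 12 of 24 Cyp probe sets were lower than sham, where 26.3% of all tested probe sets were. By the brightest probe set of each gene, 9 of 19 Cyp genes were, where 24% of all tested genes were. Higher than sham without overlap were 2 of 24 Cyp probe sets, where 23.8% of all were. Those 2 belonged to Cyp4f13, with 246.1 and 237.2 in BDL_GW4064 and 166.1 and 195.7 in Sham_Vehicle, and to Cyp2d22, with 209.1 and 179.3 in BDL_GW4064 and 107.6 and 163.5 in Sham_Vehicle. Values were below sham in 13 of 19 tested Cyp genes, where 49.8% of all tested probe sets were. The median over the 19 genes was -0.23, against 0.01 over all tested genes, and -0.13 without BDL_GW4064 replicate 2. It was -0.31 in the xenobiotic and 0.05 in the fatty acid genes. BDL_GW4064 and Sham_Vehicle arrays lay in different array sets, and a value adjusted for the set exists only through BDL_Vehicle. It was -0.32 for Cyp3a11, -0.69 for Cyp3a25, -1.24 for the called Cyp2b10 probe set and -0.34 for Cyp2c65. Of the probe sets above sham without overlap, that of Cyp4f13 had 0.60 after this adjustment and that of Cyp2d22 turned to -0.16.

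The other 42 Cyp genes, with 50 probe sets, were not tested because their signal was low, and in 35 of them every signal was under the floor of 37.1. The 7 others reached the floor in at least 1 array: Cyp2e1 84.1, Cyp21a1 51.3, Cyp2c29 49.9, Cyp39a1 44.8, Cyp1b1 44.6, Cyp17a1 40.7 and Cyp2c70 39 at most. The highest of these, Cyp2e1, an ethanol oxidising P450 of liver, read 84.1 in BDL_GW4064 replicate 2, the array with the high adipose markers, against 15.1 in replicate 1, 20 and 31.4 in BDL_Vehicle and 20.3 and 19.8 in Sham_Vehicle. Cyp1b1 also peaked in that array on 1 of its probe sets (44.6, against 2.8 in replicate 1, 6.5 to 21.2 in BDL_Vehicle and 3.1 to 3.6 in Sham_Vehicle). The part of other cell types in these values was not tested. Just inside the filter lay Cyp2c54, with a geometric mean of 39.8, and just outside it Cyp39a1 with 35.3.

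Of the 5 genes placed by subfamily name in the cholesterol and bile acid group, 4 were under the floor in every array. The other, Cyp39a1, an oxysterol hydroxylase, read 30.6 and 34.9 in BDL_GW4064, 44.8 and 26.1 in BDL_Vehicle, and 37.7 and 40.7 in Sham_Vehicle. Cyp7a1, the rate-limiting enzyme of bile acid synthesis in the liver, read at most 35.2, and Cyp8b1, which directs synthesis toward cholic acid, at most 8.8. Cyp7b1, another oxysterol hydroxylase, had 23.9 and 21 in BDL_GW4064, 17.3 and 12 in BDL_Vehicle, and 16 and 15.5 in Sham_Vehicle on its unsuffixed probe set, all under the floor. Vitamin D and retinoid genes Cyp24a1, Cyp27b1 and Cyp26a1 did not exceed 19.9, 5.8 and 3.4. Cyp1a1, the main target of the aryl hydrocarbon receptor, spanned 12.6 to 27.2, Cyp11a1, the first enzyme of steroid hormone synthesis, 0.6 to 1.5, and Cyp4a14, a PPARA target in liver, 3.2 to 15. Of 9 measured liver markers, Alb (albumin, 7.1 to 28.4), Ahsg (fetuin, 2.2 to 4.4), Fga, Fgb and Tat were under the floor in every array. Ttr, the transthyretin gene, was over it in every array (53.7 to 81.2), and Apoh read 120.3 and 33.3 in BDL_GW4064, 36.1 and 25 in BDL_Vehicle, and 52.7 and 53 in Sham_Vehicle. The summed signal of the 9 measured of 10 liver markers was 4388.1 to 5469.5 in BDL_GW4064, 4670.1 to 4726.2 in BDL_Vehicle and 5174.9 to 5385.2 in Sham_Vehicle, most of it from Apoc3 and Cps1, which enterocytes also express.

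**Figure D4:**
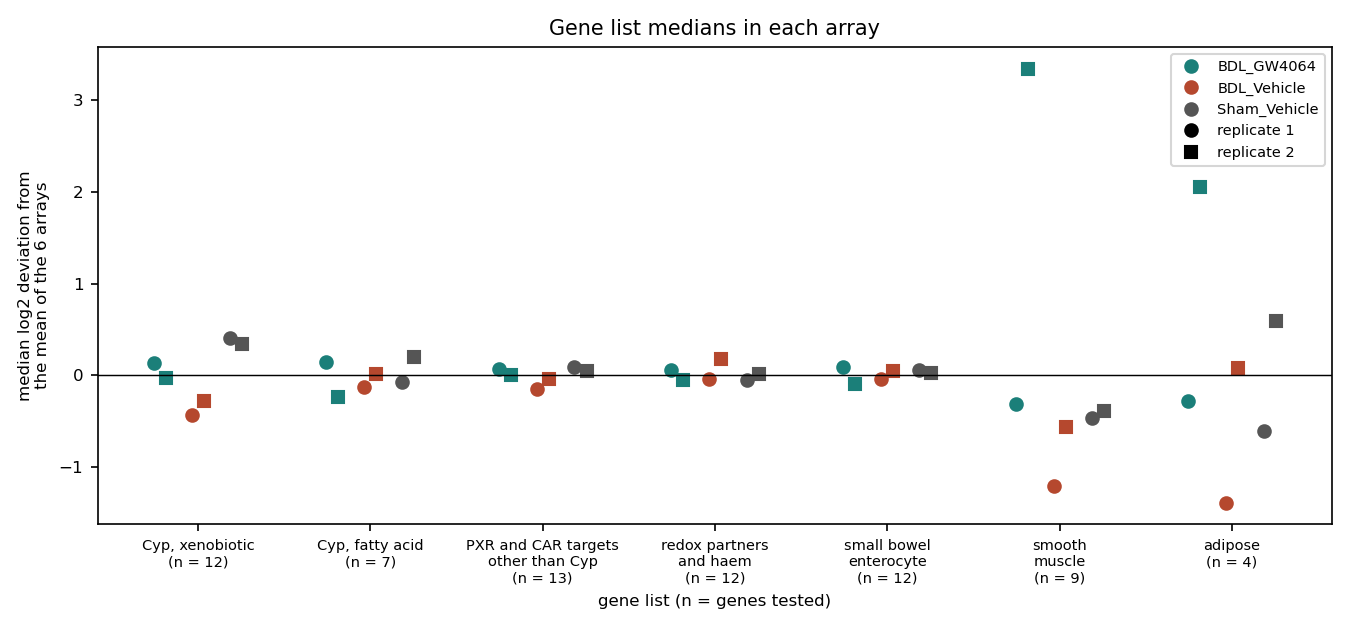
Median log2 deviation from the mean of the 6 arrays (vertical axis) for the tested genes of 7 lists, by array, with circles for replicate 1 and squares for replicate 2. The xenobiotic Cyp median was -0.43 and -0.28 in BDL_Vehicle and 0.41 and 0.34 in Sham_Vehicle, the enterocyte median stayed between -0.09 and 0.09, and smooth muscle reached 3.35 in BDL_GW4064 replicate 2.

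Genes that work with the P450s were followed from fixed lists. Of the 16 redox and haem genes, 12 were tested and 0 passed by limma in any comparison. At an unadjusted limma p under 0.05, 1 was higher and 2 lower after ligation, where 2.95% and 3.06% of all tested genes were. With GW4064 there were 0, where 5.06% of all tested genes were higher and 2.41% lower. Against sham 1 was higher and 2 lower, where 7.15% and 7.08% of all tested genes were. Cytochrome b5, Cyb5a, an electron donor to P450s, read 1998 and 1801.9 in BDL_GW4064, 1948.2 and 1819.9 in BDL_Vehicle, and 2171.3 and 2522.3 in Sham_Vehicle. Alas1, which starts haem synthesis, read 637.1 and 592 in BDL_GW4064, 552.1 and 756.6 in BDL_Vehicle, and 540.6 and 607.1 in Sham_Vehicle, and the groups overlapped. The list's medians were 0.05 after ligation and -0.05 with GW4064, beside -0.34 and 0.09 for the Cyp genes.

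Among 18 tested receptors and sensors of 23 listed, Fgf15 was the 1 called after ligation (lower), and Fgf15 and the FXR target Nr0b2 were the 2 called with GW4064 (both higher). The PXR gene Nr1i2 read 285.9 and 263.4 in BDL_GW4064, 174.5 and 182.1 in BDL_Vehicle, and 169.9 and 144.8 in Sham_Vehicle. Both treated arrays lay above all others, but the difference of 0.61 ± 0.16 (SE) from BDL_Vehicle did not pass (limma adjusted p = 0.37), and after ligation it was 0.18. The FXR gene Nr1h4 went the other way, with 319.3 and 274.7 in BDL_GW4064, 539.8 and 423.8 in BDL_Vehicle, and 428.2 and 317.5 in Sham_Vehicle. Its GW4064 difference of -0.68 did not pass (limma adjusted p = 0.426). Of the 18 genes, 9 were higher and 9 lower with GW4064. The CAR gene Nr1i3 lay near the floor, with 59 and 34.4 in BDL_GW4064, 32.5 and 86.4 in BDL_Vehicle, and 67.7 and 69.5 in Sham_Vehicle. Other PXR and CAR targets, 13 tested of 17, had 0 calls by limma in any comparison. After ligation 10 of 13 were lower (median -0.32, 4 at an unadjusted p under 0.05), and with GW4064 10 of 13 were higher (median 0.08, 2 at that p). Those 2 were Ces2a and Gstm1. Of all tested genes, 52.1% were lower after ligation (3.06% at that p) and 50.4% higher with GW4064 (5.06% at that p). The carboxylesterase Ces2a read 2418.8 and 1737.7 in BDL_GW4064, 672.8 and 853.8 in BDL_Vehicle, and 2080.3 and 2043.4 in Sham_Vehicle. The glutathione S-transferase gene Gstm1 read 310.9 and 333.9 in BDL_GW4064, 108.8 and 137.7 in BDL_Vehicle, and 207.2 and 223.9 in Sham_Vehicle. Its probe set is of the _x_at kind, and its GW4064 difference of 1.37 did not pass (limma adjusted p = 0.0668). The drug efflux pump Abcb1a read 1928.8 and 2222 in BDL_GW4064, 673.7 and 1887.7 in BDL_Vehicle, and 1694.7 and 1439 in Sham_Vehicle, so its low value lay in 1 BDL_Vehicle array.

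Targets of other receptors with Cyp targets of their own were also counted. Of the PPARA targets other than Cyp, 10 were tested, 9 were higher with GW4064 (median 0.54) and 0 passed by limma. At an unadjusted limma p under 0.05, 5 were higher, where 5.06% of all tested genes were. Against sham 8 were higher (median 0.66), 6 of them at that p, where 7.15% of all tested genes were, and 0 passed. Of the retinoid genes 6 were tested, with medians of -0.08 after ligation and -0.02 with GW4064, and of the aryl hydrocarbon receptor targets 2 were tested, with medians of -0.01 and -0.12. In both lists 0 passed by limma, and 0 had an unadjusted p under 0.05 after ligation or with GW4064.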

How the data were processed

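The authors deposited 1 table of intensity values, MAS5 signals on a linear scale per the submitters' processing notes, for 6 arrays labelled from 5 µg of total RNA each. The MAS5 version, scaling settings and detection calls are not given in the sources used here. Arrays have no count depth, and 2 per group limit the precision. From the deposited signals, log2(signal + 4) was computed, where 4 is the rounded 10th percentile of all signals, a scale that understates changes of dim genes. The 64 control probe sets and the lowest 40% by mean were left out.

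Differences were tested with limma 3.58.1 (R 4.3.3), 1 mean per group, all 6 arrays, a variance prior following signal, 3 residual and 4.71 prior degrees of freedom, and Benjamini-Hochberg adjustment over 13575 probe sets at 0.05. The fit was checked on simulated data. Where both arrays of 1 group lay under 37.1, those arrays were set to that floor and the printed fold is a lower bound. Medians over genes use 1 probe set per gene, the brightest. Symbols are those of the array's annotation, and 61 of 61 were found in RefSeq (GRCm38.p6) by identifier, with 0 differing. That table was used for names and neighbours, and promoter sequences are RefSeq's.

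Named genes were the called probe sets, those without overlap and with a log2 difference of at least 0.8, and a list of intestinal Cyp genes. The other tested members are given by their signals. Members, lists, motifs and rules were chosen with earlier results of these data known. Nr1h4, Nr1i3, Hnf4a, Alas1, Abcb1a and untested members shown for their levels were picked after their values were seen. Alternatives were median centring, quantile normalisation, a filter at 60% or none, a pseudocount of 1 or 16, no trend, a robust prior, only the 4 arrays compared, a replicate block, the array set, array weights, the actin ratio and leaving out each array.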

Additional observations from a re-analysis of the deposited data

Results flagged for a closer look

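The probe set annotated to both Cyp4f37 and Cyp4f16 belongs to more than 1 gene and is therefore no member of the family as counted here. It averaged 1477.5 in BDL_Vehicle (1340.9 and 1614.1), with both arrays above the 1032.4 and 1017.1 of Sham_Vehicle, and it read 1552.8 and 1006.3 in BDL_GW4064. In the limma fit over all probe sets its ligation difference was 0.52 (0.05 to 0.99, unadjusted p = 0.0345) and did not pass (adjusted p = 0.751). It did not pass with GW4064 (-0.23, adjusted p = 0.883) or against sham (0.29, adjusted p = 0.518) either.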

How the results depend on the processing

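The ligation count of 2 Cyp calls was 1 with no filter, a filter at 60%, the replicate block, the array set as a term or the actin ratio as a covariate, 0 with no variance trend, 3 with median centring or only the 4 arrays compared, and 0 to 3 on leaving out 1 array. The GW4064 count of 1 was 0 with no variance trend or the array set as a term, and 0 to 2 on leaving out 1 array. The count of 0 against sham was 0 to 1 on leaving out 1 array. The Cyp median for ligation was -0.45 to -0.16, that for GW4064 0.0611 to 0.26 and that against sham -0.24 to -0.13 on leaving out 1 array, and under the other alternatives the GW4064 median lay between 0.0294 (median centring) and 0.26 (filter at 60%). The Cyp2b10 probe set called after ligation is not tested with that filter, which leaves fewer probe sets. The cause of the other shifts was not tested.

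Replicate numbers share no stated animal or day, and deviations of same-numbered arrays correlated at -0.12, 0.09 and 0.04 between groups. With the replicate block the GW4064 count stayed at 1 and that against sham at 0.

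No called difference turned its sign under the alternatives run. Over all 24 tested Cyp probe sets, the array set turned 2 signs after ligation, 3 with GW4064 and 8 against sham. The other alternatives were run for the named probe sets only. After ligation, the actin ratio turned Cyp4b1 to 0.12 and the array set turned Cyp4f14 to -0.0825 and Cyp2c23 to -0.21. With GW4064, the array set turned Cyp4f14 to -0.00875, the _x_at probe set of Cyp4f16 to -0.11 and Cyp4v3 to -0.16, and median centring turned Cyp4v3 to -0.0141. Against sham, the array set turned Cyp4b1 to -0.11, Cyp4f14 to -0.0913, the brighter Cyp4f16 probe set to -0.0678, both Cyp2d22 probe sets to -0.16 and -0.0363, Cyp2c23 to -0.96, Cyp2c38 to 0.30 and Cyp2c54 to 0.0628. On leaving out 1 array, ligation differences ranged from -0.36 to 0.17 for Cyp4b1 and -0.0825 to 0.12 for Cyp4f14. GW4064 differences ranged from -0.58 to 0.13 for Cyp2j6, -0.19 to 0.0697 for Cyp2s1, -0.42 to 0.0458 for Cyp3a13, -0.0313 to 0.22 for Cyp4f14, -0.39 to 0.92 for the _x_at probe set of Cyp4f16 and -0.16 to 0.26 for Cyp4v3. Differences from sham ranged from -0.31 to 0.19 for Cyp2d26, -0.14 to 0.39 for Cyp4b1, -0.0133 to 0.23 for Cyp4f14 and -0.21 to 0.31 for the brighter Cyp4f16 probe set. Signals under 37.1 measure no order.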
